A study of Mus musculus with 6 samples.

Results

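The 9 genes described here are markers of B cells: Cd79a, Cd79b, Ms4a1, Cd22, Fcer2a, Cr2, Pax5, Blk and Fcrla. They were taken by gene symbol from a table of 21900 genes, and each symbol matched 1 row. RNA was sequenced in 6 libraries of mouse lung. The label was Cyp1b1 knockout for 3 libraries and wild type for 3, all after 10 weeks on a high fat diet, with 2 females and 1 male in each label. The sources used here do not give strain, age or the altered allele. Cyp1b1 encodes an oxidising enzyme of the cytochrome P450 family.

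Cyp1b1 itself was at 51.2, 56.1 and 48.4 CPM (counts per 1000000 assigned reads) in replicates 1, 2 and 3 labelled knockout. It was at 12.5, 19.04 and 18.5 CPM in replicates 1, 2 and 3 labelled wild type. All 3 libraries labelled knockout were thus above all 3 labelled wild type (log2 fold change 1.63, SE 0.18, limma adjusted p = 0.0588, and 0.0197 after median centring). The labels go against the targeted gene, and directions below are between libraries by their labels. Replicate 3 is the male in both labels. Whether every library is its own animal is not stated, and p-values describe only how far these libraries spread. The libraries held 20.2 to 27.6 M reads assigned to genes (M is 1000000).

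B cells recognise antigen through a membrane immunoglobulin that signals through CD79A and CD79B. The kinases LYN, BLK and SYK relay that signal, the complement receptor CD21 (from Cr2) lowers its threshold, and the lectin CD22 dampens it. PAX5 holds cells in the B lineage and is switched off when they become plasma cells. In mouse lung, B cells circulate through the capillaries and can gather in lymphoid follicles beside the airways. In whole tissue, fewer B cells and less RNA per B cell cannot be told apart.

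Cd79a, Cd22 and Cr2 are shown by their promoters because each holds 2 different short motifs of factors used by B cells. RefSeq (GRCm38.p6) gave 8 promoter windows for 6 of the 9 genes, each from 250 bases before to 50 bases after an annotated start. The motifs searched on both strands were the octamer ATGCAAAT, bound by OCT factors, the EBF1 palindrome, the E box CAGGTG, bound by E proteins, and the ETS core GGAAGT. In the windows printed no match overlaps another, and capitals mark the matches. The sequences run 5′ to 3′ on the strand of the gene.
Cd79a, chr7:24897247-24897546, plus strand: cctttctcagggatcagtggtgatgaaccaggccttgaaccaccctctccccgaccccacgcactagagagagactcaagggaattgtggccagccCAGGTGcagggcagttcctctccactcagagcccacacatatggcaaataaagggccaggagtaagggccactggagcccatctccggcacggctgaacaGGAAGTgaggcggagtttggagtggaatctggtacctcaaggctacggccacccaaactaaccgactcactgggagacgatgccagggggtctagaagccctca
Cd22, chr7:30878979-30879278, minus strand: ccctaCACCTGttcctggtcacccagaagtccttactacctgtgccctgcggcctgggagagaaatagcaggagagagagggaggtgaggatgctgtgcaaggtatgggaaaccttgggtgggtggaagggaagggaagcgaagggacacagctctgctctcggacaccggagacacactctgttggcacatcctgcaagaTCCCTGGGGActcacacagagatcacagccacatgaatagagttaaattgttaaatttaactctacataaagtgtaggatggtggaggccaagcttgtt
Cr2, chr1:195176670-195176969, minus strand: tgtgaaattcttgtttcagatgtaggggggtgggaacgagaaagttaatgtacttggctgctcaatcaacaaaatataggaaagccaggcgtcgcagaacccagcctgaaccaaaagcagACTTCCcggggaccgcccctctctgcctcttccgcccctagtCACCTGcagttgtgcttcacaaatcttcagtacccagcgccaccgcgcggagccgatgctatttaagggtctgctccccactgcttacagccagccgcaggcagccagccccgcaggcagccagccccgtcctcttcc

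The E box lay in 5 of the 8 windows, against 20.2% of all 32851 windows, and the ETS core in 3 of 8, against 23.8%. The EBF1 motif was found once, 49 bases before the annotated start used for Cd22, against 0.904% of all windows. That Cd22 window ends at 30879278, inside the gene, whose span on the minus strand reaches 30880342. The octamer was in none of the 8 and in 1.74% of all windows. The Cd79a window held an E box 154 bases and an ETS core 54 bases before the annotated start used. That start lies inside the gene, whose span on the plus strand begins at 24897381. The ETS core is within that span and the E box before it. A match is a run of letters and was not tested as a binding site.

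All 9 genes were read in every library, from 82 reads for Cr2 in labelled knockout 3 to 1772 reads for Cd79a in labelled wild type 1. Every member was therefore far above the level worth 3 reads, which lay between 0.109 and 0.148 CPM. The B cell label thus rests on a full set of detected markers.

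Cd79a (ENSMUSG00000003379, mm10 chromosome 7, 24897381 to 24902197, plus strand) encodes a signalling chain of the antigen receptor. It was at 63.3, 51.4 and 13.6 CPM in replicates 1, 2 and 3 labelled knockout. It was at 74.2, 33.7 and 62.3 CPM in replicates 1, 2 and 3 labelled wild type. The male labelled knockout held the lowest value, 2.48-fold below the next lowest library, while the other 5 libraries of the labels were interleaved.

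Cd79b (ENSMUSG00000040592, chromosome 11, 106311341 to 106314762, minus strand) encodes the partner chain. It was at 46.6, 31.2 and 12.6 CPM in replicates 1, 2 and 3 labelled knockout and at 49.9, 31.6 and 43.1 CPM in replicates 1, 2 and 3 labelled wild type. Labelled knockout 2 and labelled wild type 2 were nearly level here, and labelled knockout 3 again lay below both. Blk (ENSMUSG00000014453, chromosome 14, 63372836 to 63417037, minus strand), a SRC family kinase of B cells, was at 15.2, 10.3 and 3.70 CPM in replicates 1, 2 and 3 labelled knockout. It was at 13.9, 9.10 and 17.5 CPM in replicates 1, 2 and 3 labelled wild type. The male labelled wild type was the highest of the 6 libraries for Blk and the male labelled knockout the lowest.

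Among the surface receptors, Ms4a1 (ENSMUSG00000024673, chromosome 19, 11249675 to 11266241, minus strand) encodes CD20, a membrane protein of mature B cells. It was at 38.8, 22.9 and 12.4 CPM in replicates 1, 2 and 3 labelled knockout and at 33.2, 18.1 and 39.1 CPM in replicates 1, 2 and 3 labelled wild type. Its lowest library was 1.46-fold below the next, the smallest such gap among the 9. Cd22 (ENSMUSG00000030577, chromosome 7, 30865402 to 30880342, minus strand), the inhibitory lectin, was at 31.5, 25.4 and 13.3 CPM in replicates 1, 2 and 3 labelled knockout. It was at 34.5, 22.6 and 50.5 CPM in replicates 1, 2 and 3 labelled wild type. The male labelled wild type stood above all other libraries for Cd22.

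Cr2 (ENSMUSG00000026616, chromosome 1, 195136811 to 195176716, minus strand) encodes complement receptors of B cells and follicular dendritic cells. It was at 14.9, 9.93 and 3.20 CPM in replicates 1, 2 and 3 labelled knockout and at 13.2, 7.42 and 13.4 CPM in replicates 1, 2 and 3 labelled wild type. Fcer2a (ENSMUSG00000005540, chromosome 8, 3681737 to 3694175, minus strand) encodes CD23, the low-affinity IgE receptor of follicular B cells. It was at 17.5, 12.6 and 5.26 CPM in replicates 1, 2 and 3 labelled knockout and at 19.5, 11.4 and 15.2 CPM in replicates 1, 2 and 3 labelled wild type. Both genes thus had their lowest level in the male labelled knockout, and Fcer2a was not raised in the male labelled wild type.

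Pax5 (ENSMUSG00000014030, chromosome 4, 44524757 to 44710487, minus strand), the lineage transcription factor, was at 38.7, 31.2 and 10.8 CPM in replicates 1, 2 and 3 labelled knockout. It was at 29.2, 20.1 and 36.4 CPM in replicates 1, 2 and 3 labelled wild type. Both females labelled knockout lay above both females labelled wild type for Pax5. Fcrla (ENSMUSG00000038421, chromosome 1, 170917576 to 170927583, minus strand), a relative of Fc receptors that stays inside the B cell, was at 18.9, 14.2 and 4.41 CPM in replicates 1, 2 and 3 labelled knockout. It was at 17.2, 11.8 and 19.9 CPM in replicates 1, 2 and 3 labelled wild type. Ms4a1, Cd22, Pax5 and Fcrla overlap other annotated genes, and since the strand setting is not given, reads there cannot be told apart.

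**Figure D1:**
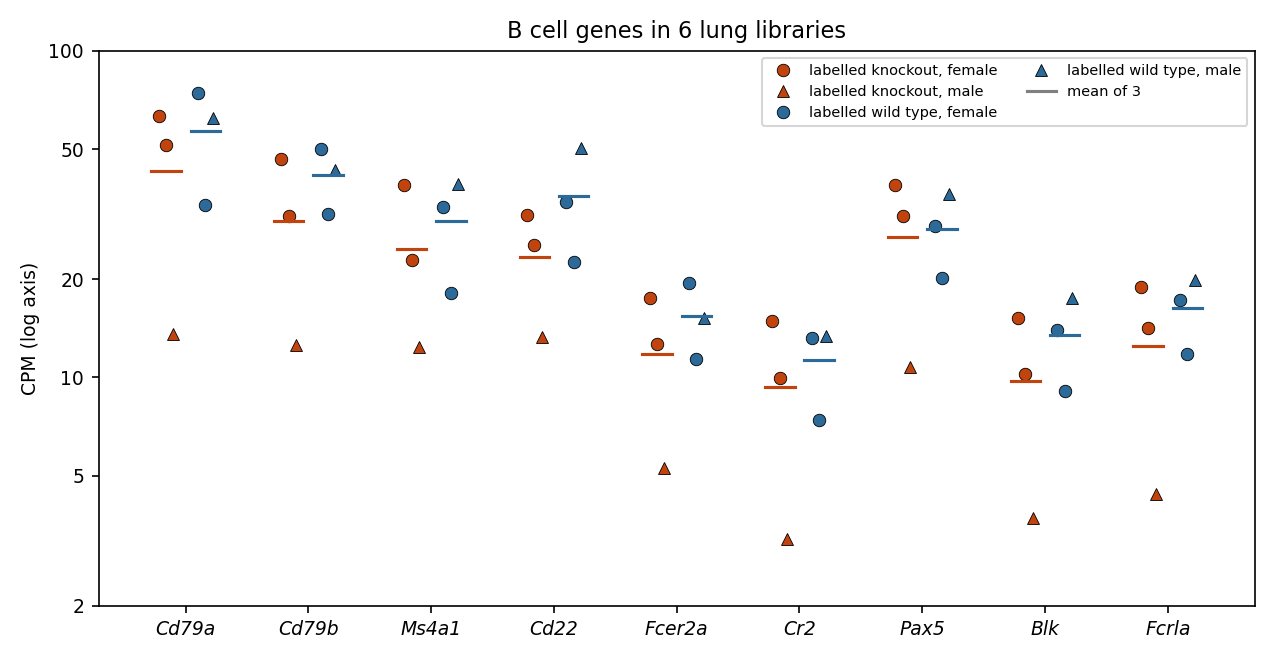
CPM of the 9 B cell genes on a log axis, labelled knockout left of labelled wild type for each gene, with circles for females, triangles for males and bars for the mean of 3 libraries. The male labelled knockout lies lowest for all 9 genes, at 13.6 CPM for Cd79a and 3.20 CPM for Cr2, while the other libraries of the labels overlap.

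Labelled knockout 3 was the lowest of the 6 libraries for all 9 genes, against 37.5% of the 17382 genes tested. Labelled wild type 2, a female, was the next lowest for 8 of the 9. The highest library was labelled wild type 3 for 4 genes, labelled wild type 1 for 3 and labelled knockout 1 for 2. The summed level of the 9 genes was 285, 209 and 79.1 CPM in replicates 1, 2 and 3 labelled knockout, and 285, 166 and 297 CPM in replicates 1, 2 and 3 labelled wild type.

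Levels per length of annotated exon put the receptor chains on top. Over the 6 libraries, Cd79a averaged 34.1 and Cd79b 25.04 CPM per kilobase, followed by Fcrla at 8.26 and Cd22 at 5.87 CPM per kilobase. Ms4a1, Fcer2a and Blk were close together, at 4.43, 4.39 and 4.31 CPM per kilobase. Pax5 was at 3.13 and Cr2 lowest at 1.27 CPM per kilobase. The exon length is a union over all annotated transcripts, so a gene with long unused exons is placed too low.

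Between the genotype labels no B cell gene passed the test. Means were lower under the knockout label for all 9, with wide spreads: Cd79a averaged 42.8 ± 26.0 CPM under the knockout label and 56.7 ± 20.8 CPM under the wild type label (SD, n = 3 each). Pax5, at the other end, averaged 26.9 ± 14.5 CPM under the knockout label and 28.5 ± 8.18 CPM under the wild type label (SD, n = 3 each). Log2 fold changes, as differences of log2(CPM + 0.5), ran from -0.62 for Cd22 to -0.23 for Pax5. Their median was -0.56, beside -0.06 for all genes tested. limma with label and sex as terms called 0 of the 9 (adjusted p of at least 0.775, Benjamini-Hochberg over 17382 genes), where 0.0115% of all genes were called. At an unadjusted p under 0.05 the count was also 0, against 5.13% of all genes. The 95% intervals of the log2 fold changes reached from -1.67 to 0.49 for Cd79a and from -1.17 to 0.72 for Pax5. The labels overlapped for all 9 genes, whereas they did not overlap for 9.52% of all genes.

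Among the 4 females alone, the B cell genes lay near each other in both labels. Cd79a averaged 57.4 CPM in females with the knockout label and 53.9 CPM in females with the wild type label. Cd22 averaged 28.4 CPM in females with the knockout label and 28.6 CPM in females with the wild type label. Log2 fold changes ran from -0.06 for Cd79b to 0.51 for Pax5, with a median of 0.19, beside -0.004 for all genes. limma called 0 of the 9 over all genes (adjusted p = 1), where 0.023% of all genes were called. At an unadjusted p under 0.05, limma gave 1 of the 9, Pax5, against 2.63% of all genes. Pax5 averaged 34.9 CPM in females with the knockout label and 24.6 CPM in females with the wild type label, and its 95% interval of the log2 fold change was 0.05 to 0.98. The log2 fold change was above 0 in the females for 7 of the 9 genes, and below 0 over all 6 libraries for all 9.

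The genotype difference was not the same in males as in females for 3 of the 9 genes, where 2.54% of all genes were called in either direction and 1.84% in the lower one. This is the difference in log2 fold change, males minus females, from an interaction term in limma. It was -2.23 for Pax5 (SE 0.36, limma adjusted p = 0.0189), -2.25 for Fcrla (SE 0.43, limma adjusted p = 0.0351) and -1.91 for Cd22 (SE 0.38, limma adjusted p = 0.0398). The other 6 ran from -2.34 for Cd79a (SE 0.54, limma adjusted p = 0.065) to -1.44 for Fcer2a (SE 0.50, limma adjusted p = 0.182). The median of the 9 was -2.19, beside -0.13 for all genes. All 9 had an unadjusted p under 0.05, against 17.9% of all genes. With 1 male per label, this sets 2 libraries against the spread of the females, which limma draws toward a trend over all genes tested. The assumption is that a lone male varies as a female does. The count was 1 without labelled knockout 1 and 8 without labelled wild type 1, 1 under quantile normalization and 0 with no filter on low genes.

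**Figure D2:**
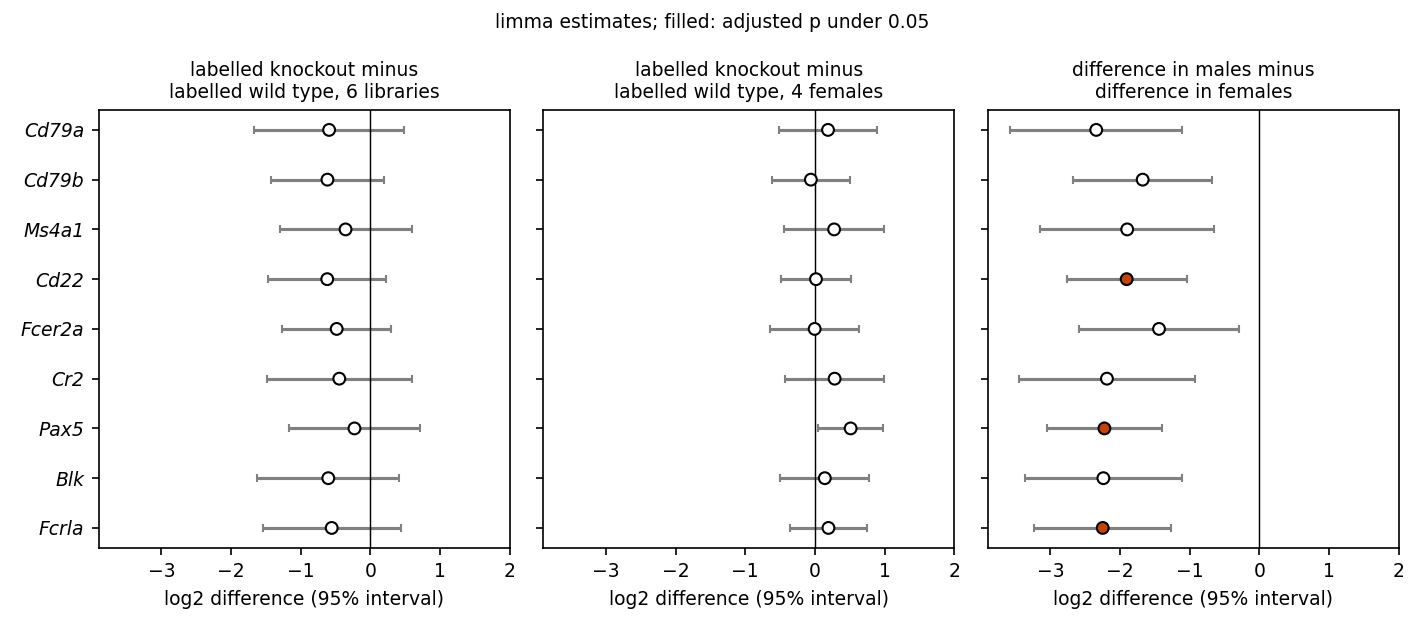
log2 differences of the 9 B cell genes with 95% intervals, for the labels over 6 libraries (left), the labels in the 4 females (middle) and the difference between males minus that between females (right). No point is filled in the first 2 panels, and Cd22, Pax5 and Fcrla are filled (limma adjusted p under 0.05) in the right panel, where estimates run from -2.34 to -1.44.

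Each male was also compared with the 2 females of its own label. The male labelled knockout had already been seen to be lowest for all 9 genes, so its comparison describes that library and adds no independent support. It is 1 library. The spread between libraries comes from the 4 females alone, and limma draws it toward a trend over all genes tested. With labelled wild type 3 left out, the sex term sets labelled knockout 3 against labelled knockout 1 and 2, and 6 of the 9 genes were lower in that male, where 5.05% of all genes were called. Pax5 was 3.13-fold lower than in those 2 females (log2 difference -1.65, SE 0.26, limma adjusted p = 0.0127), Fcrla 3.44-fold (limma adjusted p = 0.0186) and Cd79a 4.08-fold (limma adjusted p = 0.0242). Cd79b, Blk and Cr2 were 2.95-fold, 3.09-fold and 3.43-fold lower (limma adjusted p between 0.028 and 0.0423). Fcer2a, Cd22 and Ms4a1 did not pass (limma adjusted p between 0.0598 and 0.104). With labelled knockout 3 left out, which sets labelled wild type 3 against labelled wild type 1 and 2, 0 of the 9 passed, where 4.1% of all genes were called. Log2 differences of that male ran from 0.03 for Fcer2a to 0.84 for Cd22 (limma adjusted p of at least 0.136). Over all 6 libraries, limma between the sexes called 0 of the 9 (adjusted p of at least 0.411), where 0.834% of all genes were called, and 0 at an unadjusted p under 0.05, against 15.3%.

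The 9 genes moved together over the libraries. Centred on its own mean log2 value, the median gene was at 0.52, 0.001 and -1.35 in replicates 1, 2 and 3 labelled knockout, and at 0.39, -0.27 and 0.51 in replicates 1, 2 and 3 labelled wild type. The spread between the 9 genes within a library was smaller, with an SD between 0.13 and 0.21 log2 units. Cr2, Blk and Fcrla followed the median most closely over the libraries, with an SD of their deviations of 0.08, 0.09 and 0.09 log2 units. Cd22 and Cd79a followed it least, at 0.27 and 0.24.

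In labelled knockout 3, Ms4a1 lay 0.35 and Cd22 0.33 above the median gene, and Cd79a lay 0.30 below it. The Cd22 level was 0.497, 0.494 and 0.974 of the Cd79a level in replicates 1, 2 and 3 labelled knockout. It was 0.466, 0.671 and 0.810 of it in replicates 1, 2 and 3 labelled wild type. The Ms4a1 level was 0.613, 0.445 and 0.908 of the Cd79a level in replicates 1, 2 and 3 labelled knockout, and 0.448, 0.537 and 0.627 of it in replicates 1, 2 and 3 labelled wild type. Both males thus had the highest Cd22 and Ms4a1 shares, on a scale that depends on the length of both genes and is read only between libraries. Cr2 stayed between 0.178 and 0.235 of Cd79a in all 6 libraries. The lowest level among these, that of Cr2 in labelled knockout 3, rests on 82 reads.

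**Figure D3:**
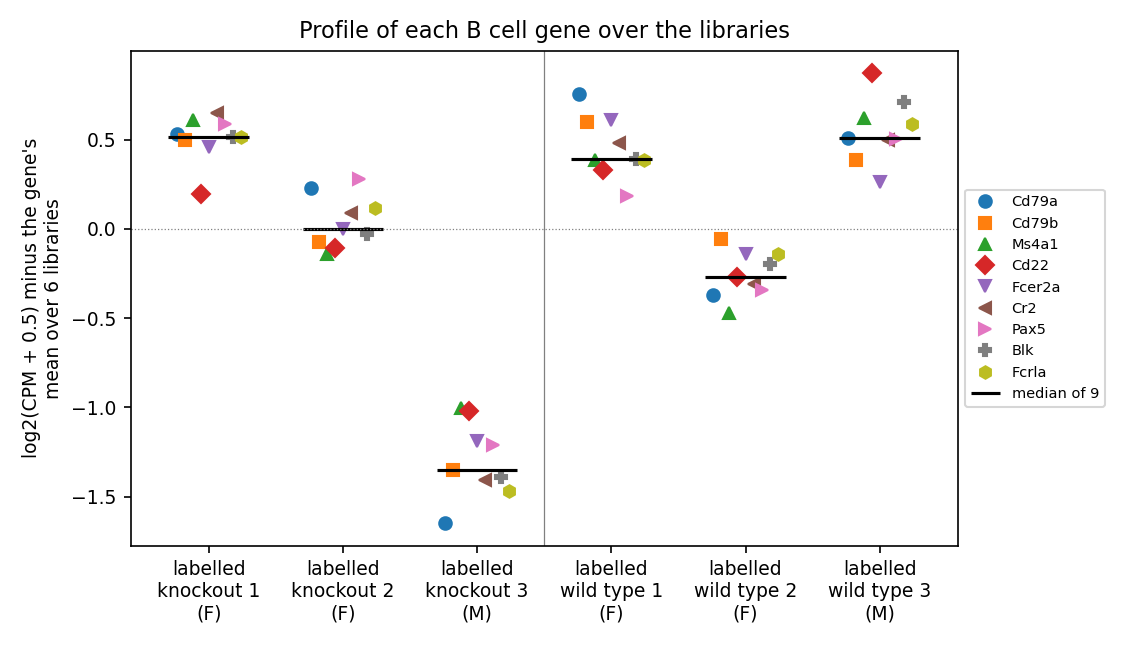
log2(CPM + 0.5) of each B cell gene minus its mean over the 6 libraries, labelled knockout left and labelled wild type right, with black bars for the median of the 9 genes. The bars sit at 0.52, 0.001 and -1.35 in replicates 1, 2 and 3 labelled knockout and at 0.39, -0.27 and 0.51 in replicates 1, 2 and 3 labelled wild type, and the genes stay close to them.

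The genes with the most similar profile were found by the root mean square difference, over the 6 libraries, from the mean centred profile of the 9 genes. The median difference was 0.646 log2 units over 16016 candidates averaging 1 CPM or more. The members themselves lay between 0.08 for Cr2 and 0.23 for Cd22. Cxcr5, the chemokine receptor that leads B cells into follicles, was at 0.12, Fcmr, the receptor for IgM, at 0.13 and Ighd, the IgD heavy chain of naive B cells, at 0.13. Ighd was at 69.3, 55.03 and 21.5 CPM in replicates 1, 2 and 3 labelled knockout and at 73.0, 38.3 and 61.1 CPM in replicates 1, 2 and 3 labelled wild type. Also among the 10 nearest were Ngb, which encodes neuroglobin, A930012L18Rik, Gm6195, Nudt17, Fbl-ps2 and Edaradd. Ngb was at 5.29, 3.30 and 1.09 CPM in replicates 1, 2 and 3 labelled knockout and at 4.35, 2.72 and 4.61 CPM in replicates 1, 2 and 3 labelled wild type. A930012L18Rik was under the 3-read level in labelled knockout 3, at 0.116 CPM.

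Further B cell genes were read from lists. A gene called lower has an interaction term below 0, which can come from labelled knockout 3, labelled wild type 3 or both. Beside each list count below stand the shares over all genes, 1.84% called lower and 2.54% called in either direction. Of 18 other B cell markers, limma's interaction term called 3 lower and 0 higher (median -1.72). They included Pou2af1, the OCT coactivator of B cells (-2.33, limma adjusted p = 0.0374), and H2-Ob, an inhibitor of peptide loading (-2.26, limma adjusted p = 0.0169). Among the 18 markers, Cd24a, Vpreb3 and Cd53 had interaction terms above 0, at 0.45, 0.20 and 0.14. Vpreb3 was at 15.9 CPM in labelled knockout 3 and 14.3 CPM in labelled wild type 3. Cd53, a tetraspanin of all leukocytes, was higher in males (97.3 and 97.5 CPM) than in females (37.7 to 54.3 CPM, limma adjusted p = 0.0279). Ighm, the IgM heavy chain, was at 309, 146 and 76.4 CPM in replicates 1, 2 and 3 labelled knockout and at 204, 418 and 449 CPM in replicates 1, 2 and 3 labelled wild type, and did not pass (limma adjusted p = 0.149).

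Of 24 genes of B cell receptor signalling, 4 were called lower and 0 higher by the interaction term (median -0.70). They included Siglecg, an inhibitory lectin (-2.17, limma adjusted p = 0.0126). Inpp5d and Ptprc, a lipid phosphatase and the CD45 phosphatase used by all leukocytes, were higher in both males than in the females (limma adjusted p = 0.0241 and 0.0446). Of 15 transcription factors of the lineage, 3 were called lower: Ikzf3 (-2.53, limma adjusted p = 0.00874), Irf8 (-2.24, limma adjusted p = 0.0055) and Pou2af1, which is also among the 18 markers. The median interaction term of the 15 was -0.51. Ebf1 (-0.43), Tcf3 (-0.45) and Bach2 (-0.51) did not pass, nor did Foxo1, which was above 0 (0.53). Irf8 was at 40.3 CPM in labelled knockout 3, 185 CPM in labelled wild type 3 and 52.3 to 70.3 CPM in the females. Spi1 and Ikzf1, factors shared with myeloid and other blood cells, were higher in males (limma adjusted p = 0.041 and 0.0494). Between the genotype labels the median log2 fold change was -0.38 for the 18 markers, -0.13 for the signalling genes and -0.14 for the factors.

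Genes of B cell survival, homing and lymphoid tissue gave 1 call among 20, Ccl19, a chemokine of T cell zones (interaction -4.37, limma adjusted p = 0.00926). It had no read in labelled knockout 3 and 7.25 CPM in labelled wild type 3. Of 6 germinal centre genes tested, Il21r, the interleukin 21 receptor, passed (-3.18, limma adjusted p = 0.0154). Among 3 genes tested of B-1 and early B cells, Bhlhe41, a transcription factor of B-1 cells, had the smallest p between the labels and did not pass (limma adjusted p = 0.343). Bhlhe41 was at 24.2, 24.0 and 22.8 CPM in replicates 1, 2 and 3 labelled knockout. Under the wild type label it was at 37.8, 54.5 and 44.0 CPM in replicates 1, 2 and 3. The labels did not overlap for it, as for 9.52% of all genes. Labelled knockout 3 was near the females of its label here, unlike for the 9 members. Of the wider Fc receptor list Fcrla and Fcgr3 passed a test, the one lower by the interaction term and the other higher in males. Of the MS4A family, Ms4a4b and Ms4a7 passed by the interaction term (-2.42 and -3.35). Ms4a6c and Ms4a6d were higher in males, while Ms4a1 passed neither test. Ms4a4b was at 13.5 CPM in labelled knockout 3, 59.0 CPM in labelled wild type 3 and 13.4 to 19.7 CPM in the females. Ms4a7 was at 1.72, 25.0 and 1.85 to 3.12 CPM in the same order. For both, labelled wild type 3 was the library that stood apart.

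Lists for other cell types also differed between the 2 males. Plasma cell genes summed to 1233, 890 and 564 CPM in replicates 1, 2 and 3 labelled knockout. They summed to 845, 1287 and 3503 CPM in replicates 1, 2 and 3 labelled wild type. Xbp1 and Sdc1, at 205 and 148 CPM, made up much of the sum in labelled knockout 3. Xbp1 stayed between 205 and 229 CPM in all libraries. Ighm is in this list and also among the 18 B cell markers, so the sum is not a level of plasma cells alone. Igha, the IgA heavy chain, was at 33.3 CPM in labelled knockout 3 and 966 CPM in labelled wild type 3 (interaction -6.81, limma adjusted p = 0.00038). MHC class II genes, which B cells share with dendritic cells and macrophages, summed to 553 CPM in labelled knockout 3 and 5324 CPM in labelled wild type 3, and 9 of 10 were called lower. T cell genes summed to 107 CPM in labelled knockout 3 and 346 CPM in labelled wild type 3, with 4 of 15 called lower, Cd4 by -3.48. The B cell genes summed to 79.1 CPM and 297 CPM in the same 2 libraries, beside 166 to 285 CPM in the females. In the females, T cell genes summed to 114 to 154 CPM and MHC class II genes to 1310 to 1592 CPM. Igha was at 26.0 to 169 CPM in the females. For T cell genes and Igha, labelled knockout 3 was thus near or within the females' range, and labelled wild type 3 stood apart.

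**Figure D4:**
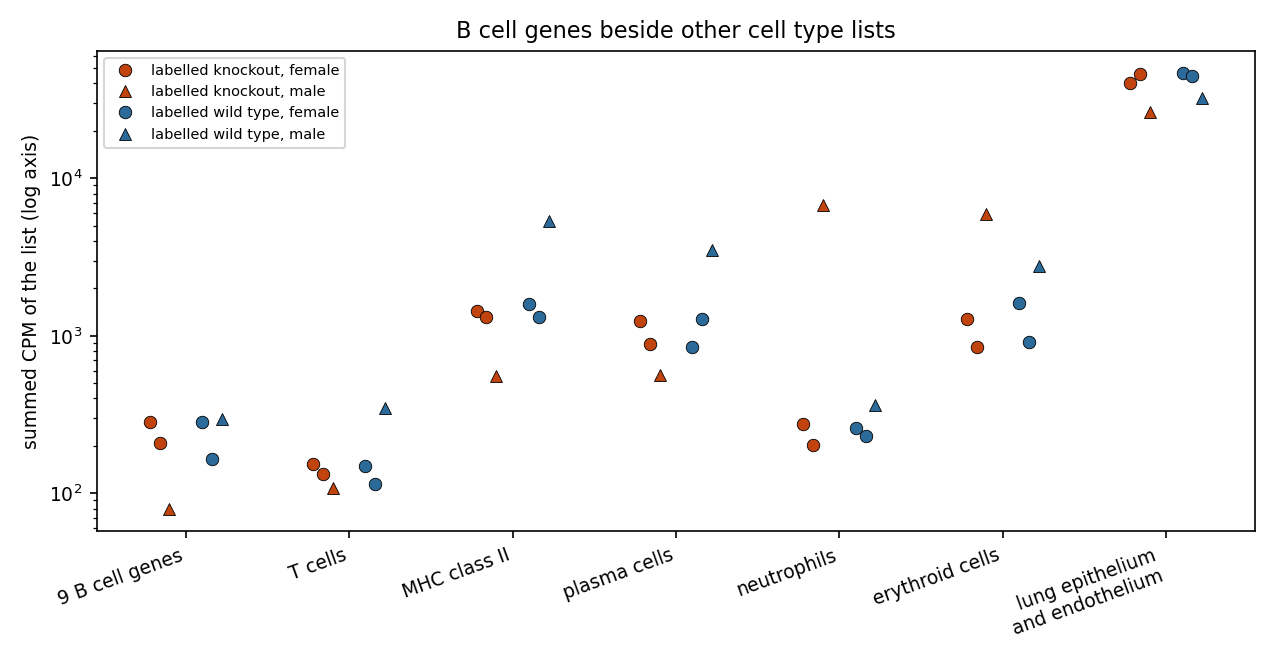
Summed CPM of the 9 B cell genes and of lists for other cell types on a log axis, labelled knockout left of labelled wild type, with triangles for males. The B cell genes are lowest in the male labelled knockout (79.1 CPM), whose neutrophil list reaches 6735 CPM, while MHC class II and plasma cell genes are highest in the male labelled wild type.

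Neutrophil and red cell genes were high in labelled knockout 3, where the B cell genes were low. The 11 neutrophil genes summed to between 201 and 6735 CPM under the knockout label and between 231 and 365 CPM under the wild type label, and the interaction term called 9 higher. Ngp was at 1050 CPM and Mmp8 at 388 CPM in labelled knockout 3. The 7 erythroid genes summed to 5913 CPM in labelled knockout 3 and 2769 CPM in labelled wild type 3. In the females they summed to 852 to 1609 CPM, so both males lay above the females. Alas2 and Slc4a1 were higher in males (limma adjusted p = 0.0393 and 0.0332). Lung epithelial and endothelial genes summed to 26244 CPM in labelled knockout 3 and 32261 CPM in labelled wild type 3. In the females they summed to between 40297 and 46891 CPM. Scgb1a1 and Sftpc made up most of these sums, at 9396 and 7541 CPM in labelled knockout 3. The endothelial genes were not low there. Pecam1 was at 1057 CPM in labelled knockout 3, 669 CPM in labelled wild type 3 and 743 to 889 CPM in the females. Cdh5 was at 1022 CPM in labelled knockout 3, 631 CPM in labelled wild type 3 and 894 to 1062 CPM in the females. For both genes labelled wild type 3 was thus the lowest library. Mitochondrial transcripts took 5.46% of labelled knockout 3 and 3.24% of labelled wild type 3. The part of these differences in the B cell result was not tested.

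Cell types that share single B cell genes were read from their own lists. The 7 genes of plasmacytoid dendritic cells, which also express Blk, summed to between 87.6 and 113 CPM under the knockout label and between 98.6 and 231 CPM under the wild type label. Bst2 and Lair1 passed by the interaction term (-2.15 and -2.56). Lair1 was at 10.7 CPM in labelled knockout 3, 43.5 CPM in labelled wild type 3 and 5.19 to 10.8 CPM in the females. Bst2 was at 30.7, 133 and 54.4 to 66.8 CPM in the same order. Of the follicle and lymph node stroma list, 5 of 8 genes were in the table. They summed to between 343 and 372 CPM under the knockout label and between 329 and 394 CPM under the wild type label. Clu, at 256 to 308 CPM, made up most of each sum, so the sums say little about the other genes. Cxcl13 was at 2.38 CPM in labelled knockout 3, 10.2 CPM in labelled wild type 3 and 2.76 to 8.15 CPM in the females. Thymocyte genes summed to at most 14.7 CPM under the knockout label and 35.6 CPM under the wild type label, and 1 to 3 of the 6 were under the 3-read level in each library. Their part in the B cell values was not tested.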

How the data were processed

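RNA-seq was measured in 6 libraries of mouse lung, 3 labelled Cyp1b1 knockout and 3 labelled wild type. The authors deposited CPM values (counts per 1000000 assigned reads) per gene, with 0.0001 added to each value, which was subtracted again. The submitters' processing notes name mm10, TopHat2 and Partek. No source used here gives versions, annotation, filters or strand setting. Between 82.1% and 83.3% of values up to 100 reads were whole multiples of the smallest step within 0.05, which was too few to treat the values as whole reads, and a count model was therefore left aside. Reads behind a value are CPM divided by that step, and floors cover counting error only. The intervals given for fold changes come from limma's SE, and so reflect the spread between libraries.

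Tests were two-sided and used limma 3.58.1 with a variance trend in R 4.3.3, on log2(CPM + 0.5) for 17382 genes with a mean of at least 0.5 CPM, which all 9 members passed. Terms were label and sex, with their interaction in a second fit; a Benjamini-Hochberg adjusted p under 0.05 over all genes was the threshold. Fold changes on this scale understate changes of low genes. Positions and exon lengths come from GENCODE M21. The fits were tested on simulated data. Members and the 17 gene lists (183 of 191 genes found) were chosen with earlier results of these data known. Named genes were the members, Cyp1b1, Ighm and Ighd, and the 10 nearest profiles. To these came, from each list, up to 4 genes past a test or the 2 of smallest p. Cd79a ratios were chosen after values were seen. Other genes printed with values, such as Vpreb3, Cd24a, Xbp1, Sdc1, Cxcl13, Clu, Cdh5, Scgb1a1, Sftpc, Ebf1 and Foxo1, fell outside this rule. A gene that this rule also names is counted in its lists but not reported here. Alternatives were other pseudocounts, filters, scalings, moderation, no sex term and leaving out libraries. Python 3.11.15, pandas 2.3.3 and matplotlib 3.10.9 were used.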

Additional observations from a re-analysis of the deposited data

Results flagged for a closer look

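The genotype difference in males was not that in females, by limma's interaction term, for 3 of the 9 B cell genes and for 27 other genes that the naming rule picks out, with at most 4 from each list. Further genes of these lists also passed and are only counted in the report. Each value is the log2 fold change in males minus that in females, and each rests on 1 male per label. Among the B cell genes it was -1.91 for Cd22, -2.25 for Fcrla and -2.23 for Pax5. Among genes of the other B cell lists, not all of them confined to B cells, it was -2.17 for Siglecg, -2.53 for Ikzf3, -2.24 for Irf8, -2.33 for Pou2af1 and -2.26 for H2-Ob. Among MHC class II genes it was -3.15 for H2-Aa, -3.32 for H2-Ab1, -3.46 for H2-Eb1 and -3.21 for their activator Ciita.

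Plasma cell genes gave -6.81 for Igha, -7.16 for Ighg2c, -3.95 for Igkc and -2.73 for Mzb1. T cell genes gave -2.32 for Cd247, -2.36 for Cd3g, -3.48 for Cd4 and -3.51 for Cd6. The chemokine Ccl19 was at -4.37, Il21r at -3.18, Bst2 at -2.15, Lair1 at -2.56, Ms4a4b at -2.42 and Ms4a7 at -3.35. Neutrophil genes were on the other side, with 5.56 for Mmp8, 3.79 for Mmp9, 7.62 for Ngp and 4.66 for Retnlg.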

How the results depend on the processing

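The count of B cell genes between the genotype labels was 0 under every alternative run, and likewise among the 4 females. Between the sexes it was 0 in all but 1 alternative, with a range of 0 to 6 on leaving out a library; the 6 came without labelled wild type 3. For the interaction of label and sex, the count of 3 became 1 under quantile normalization (Pax5) and 0 with no filter on low genes, where limma called no gene at all. Leaving out a female gave 1 to 8. The causes were not tested. Leaving out a male removes that term, so no value was obtained. The spread of the genes about their median was 0.17 log2 units, and 0.17 and 0.16 at pseudocounts of 0.1 and 1.

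In the 4 females alone the log2 fold change between labels turned to 0.19 for Cd79a, 0.28 for Ms4a1, 0.015 for Cd22, 0.28 for Cr2, 0.51 for Pax5, 0.14 for Blk and 0.19 for Fcrla. Leaving out 1 library, it ran from -1.14 to 0.19 for Cd79a, -0.78 to 0.28 for Ms4a1, -0.97 to 0.015 for Cd22, -0.88 to 0.28 for Cr2, -0.59 to 0.51 for Pax5, -0.99 to 0.14 for Blk and -0.92 to 0.19 for Fcrla. The log2 difference between the sexes ran from -2.03 to 0.31 for Cd79a, -1.56 to 0.11 for Cd79b, -1.24 to 0.66 for Ms4a1, -1.06 to 0.84 for Cd22, -1.42 to 0.026 for Fcer2a, -1.78 to 0.41 for Cr2, -1.65 to 0.58 for Pax5, -1.63 to 0.61 for Blk and -1.78 to 0.47 for Fcrla. Each of the 9 interaction differences stayed below 0 throughout. No paired analysis was possible because the numbers 1 to 3 were given in accession order and only name libraries, and the labels pair none of them.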

Other observations

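Cd22 was high in both males relative to Cd79b, the receptor chain. The Cd22 level was 0.675, 0.813 and 1.05 of the Cd79b level in replicates 1, 2 and 3 labelled knockout, and 0.692, 0.715 and 1.17 of it in replicates 1, 2 and 3 labelled wild type. The 2 males thus stood above the 4 females. These ratios were chosen after their values were seen, and the difference was not tested.

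Ighd and Ighm encode the heavy chains that naive B cells carry. The Ighd level was 1.09, 1.07 and 1.58 of the Cd79a level in replicates 1, 2 and 3 labelled knockout, and 0.984, 1.14 and 0.980 of it in replicates 1, 2 and 3 labelled wild type. The Ighm level was 4.88, 2.84 and 5.62 of the Cd79a level in replicates 1, 2 and 3 labelled knockout, and 2.75, 12.4 and 7.21 of it in replicates 1, 2 and 3 labelled wild type. Labelled wild type 2, which had the next lowest B cell levels, thus had the highest Ighm share. Ighm is also made by plasma cells. These values were chosen after they were seen and were not tested.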
